A study of Mus musculus with 12 samples.

Results

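The D cyclins Ccnd1, Ccnd2 and Ccnd3, their kinase partner Cdk6 and the inhibitors Cdkn1a, Cdkn1b, Cdkn1c, Cdkn2a, Cdkn2b and Cdkn2c were followed in the mouse auditory nerve after ouabain injury. Every probe set whose annotated symbol was exactly 1 of these names was taken, which gave 24 of 45037 probe sets tested and 10 of 18193 genes. Ouabain inhibits the Na,K-ATPase of cell membranes and was placed at 3 mM in the round window niche of the right ear for 60 min in all, in CBA/CaJ mice of both sexes aged 8 to 12 weeks. The groups were ouabain-treated right ears after 3 days, control left ears of that day, ouabain-treated right ears after 7 days and control left ears of that day, with 3 arrays each. The treatment protocol leaves the left ear unoperated, although the labels of the 7-day controls say only control, so surgery and drug differ together between the ears and cannot be told apart. Modiolus tissue was used, which forms the cochlear core and carries the auditory nerve and its ganglion, and each array held RNA pooled from 2 preparations of animals that are not named. The p-values therefore measure the spread between these pooled samples.

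Cells pass from G1 into S phase when cyclin D, bound to Cdk4 or Cdk6, begins to phosphorylate the retinoblastoma protein, which then releases the E2F transcription factors. Proteins of the INK4 family (encoded by Cdkn2a, Cdkn2b and Cdkn2c) bind Cdk4 and Cdk6 directly, whereas proteins of the Cip/Kip family (encoded by Cdkn1a, Cdkn1b and Cdkn1c) bind complexes of cyclins and kinases. In adult nerve, Schwann cells are largely out of the cell cycle and can re-enter it after injury, while mature neurons do not divide. In whole tissue, fewer cells of a type and less RNA per cell cannot be told apart.

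Ccnd1 was far higher in ouabain-treated nerves at both days, 8.81-fold at 3 days and 2.85-fold at 7 days, and Cdkn2c was 2.14-fold higher at 3 days. Cdk6 was about 1.51-fold higher at both days. Cdkn2a was 1.54-fold higher at 3 days at a very low signal, and Cdkn2b was 1.71-fold higher at 7 days. The Cip/Kip inhibitors lay below control on average at both days, and none of them was called. A gene was represented by its brightest probe set and was called where its p in limma, adjusted by Benjamini-Hochberg over all probe sets, was under 0.05 and its fold change was above 1.5. At 3 days 4 of the 10 genes were called higher and 0 lower, against 15.6% of all genes called in either direction, 7.51% higher and 8.06% lower. Without control replicate 3 or ouabain replicate 3 of that day, 2 were called. At 7 days 3 were called higher and 0 lower, against 15.8% of all genes called, 7.57% higher and 8.2% lower. The median log2 fold change of the 10 genes was 0.25 at 3 days and 0.44 at 7 days, while over all genes it was 0.01 and 0.03. With the adjusted p alone, 5 genes were higher and 2 lower at 3 days, against 29.7% of all genes, and 6 were higher and 1 lower at 7 days, against 31.6%. Between 7-day and 3-day controls no member was called in limma (0 of 10, and 0 at an unadjusted p under 0.05), where 0.0165% of all genes were called.

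**Figure D1:**
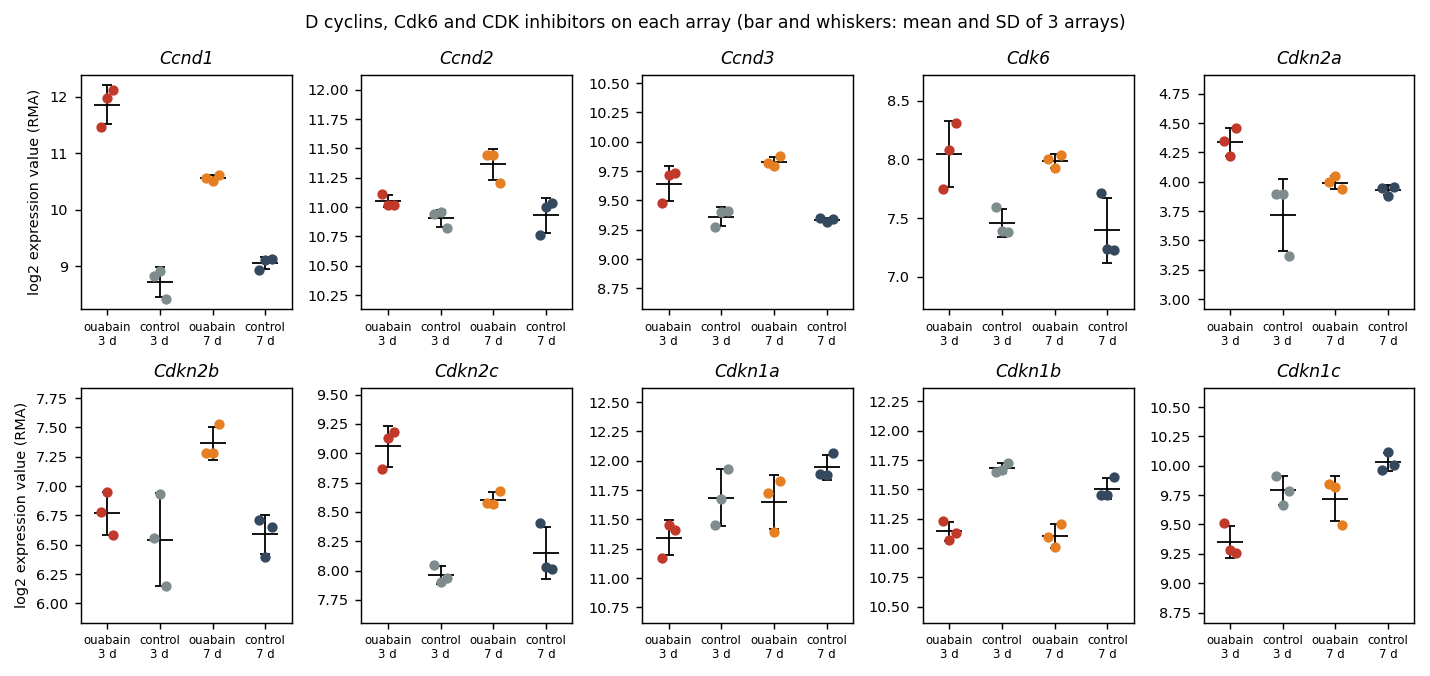
Log2 expression value (RMA) of the brightest probe set of each gene on each of the 12 arrays, with the mean and SD of 3 arrays as bar and whiskers, and a panel for each gene with its own axis. Ccnd1 spans 11.47 to 12.13 in ouabain-treated nerves at 3 days, above every control array, and Cdkn1b lies below its controls on all ouabain arrays.

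Of the D cyclins, Ccnd1, the one most closely tied to growth factor signals, changed the most. Ccnd1 (probe set 1417420_at) had log2 values of 11.47, 11.98 and 12.13 in ouabain-treated nerves at 3 days, against 8.83, 8.92 and 8.43 in control nerves. The 7-day arrays gave 10.57, 10.51 and 10.62 in ouabain-treated nerves, against 8.94, 9.11 and 9.12 in control nerves. The groups stood apart by more than their whole range at each day. The log2 fold change was 3.14 at 3 days (SE 0.16, 95% interval 2.78 to 3.50, adjusted p = 2.14e-07 in limma) and 1.51 at 7 days (SE 0.16, 95% interval 1.15 to 1.87, adjusted p = 3.3e-05 in limma). The 7-day response was smaller than the 3-day response by a log2 difference of −1.63 (SE 0.23, adjusted p = 0.00747 in limma). Ccnd1 was the only 1 of the 10 genes whose response was called different between the days, against 1.17% of all genes. The other probe sets of Ccnd1 had log2 fold changes of 3.72 and 3.33 at 3 days and 1.99 and 1.72 at 7 days, and their differences between days of −1.73 and −1.62 were called as well, against 0.822% of all probe sets.

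Ccnd2, a D cyclin found in many neural and blood progenitors, showed a small difference at the later day. At 7 days its brightest probe set (1434745_at) had 11.44, 11.44 and 11.21 in ouabain-treated nerves, against 10.76, 10.997 and 11.03 in control nerves. At 3 days it had 11.11, 11.02 and 11.02 in ouabain-treated nerves, against 10.94, 10.95 and 10.82 in control nerves. Neither day showed overlap. The log2 fold change was 0.15 at 3 days (95% interval −0.07 to 0.36, adjusted p = 0.355 in limma) and 0.43 at 7 days (95% interval 0.22 to 0.65, adjusted p = 0.00592 in limma), a 1.35-fold difference under the fold threshold. The 7 probe sets of Ccnd2 ran from 0.35 to 0.77 at 7 days, and 2 of them were called higher, 1416123_at at 0.77 and 1448229_s_at at 0.62. At 3 days none of the 7 was called, with log2 fold changes from 0.15 to 0.31.

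Ccnd3, a broadly expressed D cyclin, showed small differences. At 7 days its brightest probe set (1415907_at) had 9.82, 9.79 and 9.88 in ouabain-treated nerves, against 9.35, 9.31 and 9.34 in control nerves. At 3 days it had 9.48, 9.72 and 9.73 in ouabain-treated nerves, against 9.27, 9.40 and 9.41 in control nerves. The arrays of the groups did not overlap on either day. On the log2 scale the change was 0.28 at 3 days (adjusted p = 0.031 in limma) and 0.50 at 7 days (95% interval 0.31 to 0.68, adjusted p = 0.00112 in limma), where the 1.41-fold difference was under the fold threshold. The dimmer probe sets had 0.10 and 0.14 at 3 days and 0.38 and −0.01 at 7 days, and neither passed the adjusted p.

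Cdk6, a kinase that D cyclins activate, was called higher at both days by a narrow margin. Its brightest probe set (1455287_at) had 7.75, 8.08 and 8.31 in ouabain-treated nerves at 3 days, against 7.59, 7.39 and 7.38 in control nerves. The 7-day arrays gave 8.01, 7.92 and 8.04 in ouabain-treated nerves, against 7.72, 7.24 and 7.23 in control nerves. All ouabain arrays were above all controls of their day, with control replicate 1 at 7 days the closest. The log2 fold change was 0.59 at 3 days (SE 0.15, adjusted p = 0.014 in limma) and 0.59 at 7 days (SE 0.15, adjusted p = 0.0134 in limma). The folds of 1.505 and 1.509 lay just past the threshold. Neither day was called with the mean over the probe sets (0.49 and 0.47) or with the methods' t-test on the same arrays after Benjamini-Hochberg adjustment. Leaving out any 1 of 4 arrays ended the call at 3 days, with log2 fold changes of 0.57 without ouabain replicate 2, 0.46 without ouabain replicate 3, 0.56 without control replicate 2 and 0.55 without control replicate 3. At 7 days it ended with 0.57 without ouabain replicate 3, 0.52 without control replicate 2 and 0.51 without control replicate 3. Probe set 1435338_at was called at both days with 0.67 and 0.86, and the dim probe set 1460291_at had 0.20 and −0.04.

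**Figure D2:**
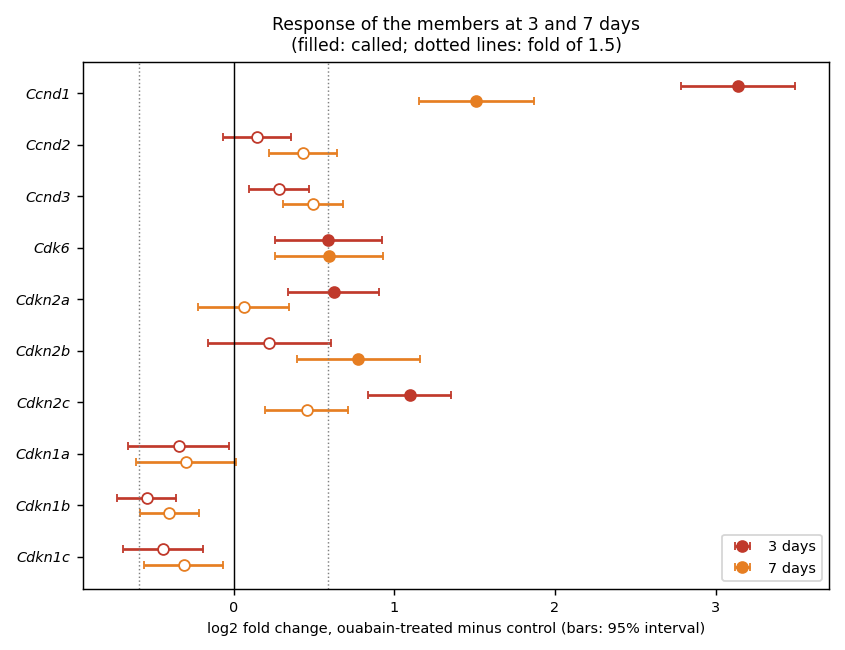
Log2 fold change of ouabain-treated minus control nerves for the brightest probe set of each gene, at 3 days and at 7 days, with 95% intervals as bars, filled points for called changes and dotted lines at a fold of 1.5. Ccnd1 stands at 3.14 and 1.51, and the 3 Cip/Kip genes lie between −0.54 and −0.30.

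Within the INK4 family, Cdkn2c, which encodes p18, was called at 3 days. It had 8.86, 9.13 and 9.18 in ouabain-treated nerves at 3 days, against 8.05, 7.90 and 7.93 in control nerves. At 7 days it had 8.57, 8.57 and 8.68 in ouabain-treated nerves, against 8.41, 8.03 and 8.02 in control nerves. The ouabain arrays were the higher ones at each day, and control replicate 1 at 7 days stood above the other controls of that day. Ouabain minus control gave a log2 fold change of 1.10 at 3 days (SE 0.12, 95% interval 0.84 to 1.36, adjusted p = 3.35e-05 in limma). The 7-day change was 0.45 (SE 0.12, 95% interval 0.20 to 0.71, adjusted p = 0.0141 in limma), a 1.37-fold difference under the fold threshold. The response at 7 days minus that at 3 days was −0.64 (95% interval −1.01 to −0.28, adjusted p = 0.112 in limma), so a difference between the days was not called.

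Cdkn2b, which encodes p15 and is a known target of TGF-beta signalling, was called at 7 days. It had 7.28, 7.28 and 7.53 in ouabain-treated nerves, against 6.71, 6.40 and 6.66 in control nerves, with no overlap. At 3 days it had 6.78, 6.95 and 6.58 in ouabain-treated nerves, against 6.56, 6.93 and 6.15 in control nerves, and the groups overlapped. The log2 fold change was 0.78 at 7 days (SE 0.18, adjusted p = 0.00617 in limma) and 0.22 at 3 days (95% interval −0.16 to 0.61, adjusted p = 0.449 in limma). The responses differed between the days by 0.55 (95% interval 0.01 to 1.09), which did not pass the adjusted test (adjusted p = 0.381 in limma).

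Cdkn2a, a gene that encodes both p16 and, from another first exon, p19Arf, lay near the lower end of the arrays. It had 4.35, 4.22 and 4.46 in ouabain-treated nerves at 3 days, against 3.89, 3.90 and 3.37 in control nerves. The lower quartile of all probe sets on an array ran from 4.26 to 4.38, so every control value was below it. Its 7-day values were 3.996, 4.05 and 3.93 in ouabain-treated nerves, against 3.95, 3.88 and 3.96 in control nerves, and the groups overlapped. On the log2 scale the change was 0.62 at 3 days (SE 0.13, adjusted p = 0.00357 in limma) and 0.06 at 7 days (95% interval −0.22 to 0.35, adjusted p = 0.783 in limma). The call at 3 days was lost without control replicate 3 (0.45) and without ouabain replicate 3 (0.57). It also rests on a signal below that of most probe sets.

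Of the Cip/Kip inhibitors, Cdkn1b, which encodes p27 and is known to hold many differentiated cells out of the cycle, had the smallest spread. Its brightest probe set (1434045_at) had 11.23, 11.06 and 11.13 in ouabain-treated nerves at 3 days, against 11.65, 11.67 and 11.73 in control nerves. After 7 days the arrays gave 11.10, 11.01 and 11.21 in ouabain-treated nerves, against 11.45, 11.46 and 11.61 in control nerves. Each ouabain array was below each control array of its day. Ouabain minus control gave a log2 fold change of −0.54 at 3 days (SE 0.08, 95% interval −0.72 to −0.36, adjusted p = 5.00e-04 in limma), 1.45-fold lower. After 7 days it was −0.40 (SE 0.08, 95% interval −0.58 to −0.22, adjusted p = 0.00405 in limma), 1.32-fold lower. Both values passed the adjusted p and missed the fold threshold of 1.5. The second probe set had −0.50 and −0.37.

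Cdkn1c, which encodes p57, had 9.51, 9.28 and 9.26 in ouabain-treated nerves at 3 days, against 9.92, 9.67 and 9.79 in control nerves. At 7 days it had 9.85, 9.82 and 9.50 in ouabain-treated nerves, against 9.96, 10.12 and 10.01 in control nerves. The ouabain arrays were the lower ones on both days, without overlap. The log2 fold change was −0.44 at 3 days (95% interval −0.69 to −0.19, adjusted p = 0.0132 in limma), under the fold threshold, and −0.31 at 7 days (95% interval −0.56 to −0.06, adjusted p = 0.0659 in limma).

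Cdkn1a, which encodes p21 and is the best known transcriptional target of p53, had 11.17, 11.45 and 11.41 in ouabain-treated nerves at 3 days, against 11.45, 11.68 and 11.93 in control nerves. The 7-day arrays gave 11.72, 11.39 and 11.83 in ouabain-treated nerves, against 11.88, 11.88 and 12.07 in control nerves. The groups met at 3 days and stood apart at 7 days. On the log2 scale the change was −0.34 at 3 days (95% interval −0.65 to −0.03, adjusted p = 0.115 in limma) and −0.30 at 7 days (95% interval −0.61 to 0.02, adjusted p = 0.161 in limma). Neither passed the test, and both intervals exclude a rise of 1.5-fold. The second probe set had −0.13 and −0.26.

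**Figure D3:**
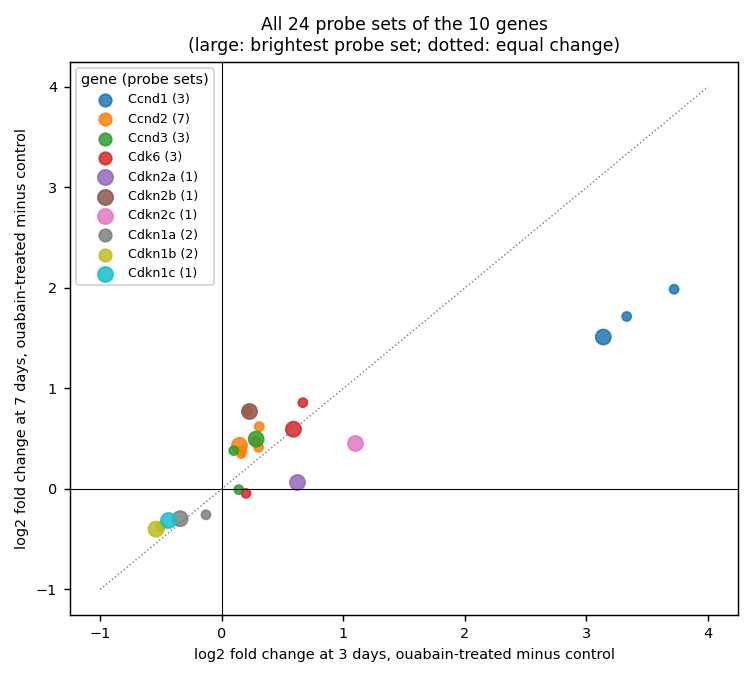
Log2 fold change at 7 days against that at 3 days for all 24 probe sets, ouabain-treated minus control, with a large point for the brightest probe set of a gene and a dotted line of equal change. The 3 probe sets of Ccnd1 lie far below the line, at 3.14 to 3.72 on the 3-day axis and 1.51 to 1.99 on the 7-day axis.

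Over all 24 probe sets, 7 were called higher and 0 lower at 3 days, against 12.3% of all probe sets called and 5.71% called higher. At 7 days 8 were called higher and 0 lower, against 12.7% called and 6.14% called higher. Ouabain and control arrays did not overlap in 8 of the 10 genes at 3 days, against 43.6% of all genes, and in 9 of 10 at 7 days, against 46.1%. For probe sets the numbers were 14 of 24, against 37% of all probe sets, and 20 of 24, against 38.3%. Each day had its own control arrays.

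Promoters of these genes were searched for short motifs of the factors that act on this pathway. RefSeq windows of the 250 bases before a start site were at hand for 7 of the 10 genes and gave 11 windows, on build GRCm38.p6, and Ccnd1, Ccnd2 and Cdkn1c had none. The searches covered the E2F motifs TTTCCCGC and TTTGGCGC, the cyclic AMP response element TGACGTCA and the AP-1 motif TGACTCA, on both strands. A p53 element was taken as adjacent half-sites of 10 bases with at most 1 mismatch outside the C and G of each core. Of the windows, 3 are shown because they held a match, printed 5′ to 3′ on the gene's strand with the match in capitals. They lie at chr17:29090729-29090978 on the plus strand (Cdkn1a, p53 element), at chr4:89294620-89294869 on the minus strand (Cdkn2a, E2F motif) and at chr4:89311033-89311282 on the minus strand (Cdkn2b, cyclic AMP response element). Cdkn1a and Cdkn2a each had another, more downstream window without a match.
Cdkn1a: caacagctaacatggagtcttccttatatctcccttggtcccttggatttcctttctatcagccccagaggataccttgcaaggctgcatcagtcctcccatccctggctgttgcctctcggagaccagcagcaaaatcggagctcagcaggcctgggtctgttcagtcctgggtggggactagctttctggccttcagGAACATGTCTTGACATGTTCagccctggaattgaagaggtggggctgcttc
Cdkn2a: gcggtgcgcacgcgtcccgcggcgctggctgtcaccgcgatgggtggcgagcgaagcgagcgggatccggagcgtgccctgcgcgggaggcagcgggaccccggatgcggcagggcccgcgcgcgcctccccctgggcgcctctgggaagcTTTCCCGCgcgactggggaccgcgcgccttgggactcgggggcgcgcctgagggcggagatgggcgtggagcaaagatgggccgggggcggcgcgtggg
Cdkn2b: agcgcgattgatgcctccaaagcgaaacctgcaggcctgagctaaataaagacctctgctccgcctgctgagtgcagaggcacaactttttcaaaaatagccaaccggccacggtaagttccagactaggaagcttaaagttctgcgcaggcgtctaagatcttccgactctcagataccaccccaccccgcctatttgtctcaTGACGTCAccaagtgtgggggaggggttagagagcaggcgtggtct

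The Cdkn1a element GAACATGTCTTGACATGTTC ended 32 bases before the start site of its window. Such an element was present in 0.0578% of 32851 windows of this length. The E2F motif of Cdkn2a ended 92 bases before its start site and occurred in 0.895% of windows, while the element of Cdkn2b ended 39 bases before its start site and occurred in 1.55%. The AP-1 motif, present in 4.46% of windows, and TTTGGCGC, present in 0.417%, matched no window of these genes. Set beside the arrays, the gene with the p53 element was not called at either day, the gene with the E2F motif was called at 3 days near the lower end of the signal, and the gene with the cyclic AMP response element was called at 7 days. A match is a description of letters and was not tested as a site.

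Of 29 genes that work with the D cyclins on the way from G1 to S, 10 were higher, 1 was lower and 18 did not pass at 3 days (median log2 fold change 0.42). At 7 days 1 was higher, 5 were lower and 23 did not pass (median −0.04). Over all genes 7.51% were called higher and 8.06% lower at 3 days, and 7.57% higher and 8.2% lower at 7 days. By the rule of the 2 highest and 2 lowest called genes at each day, the named genes, with their log2 fold changes, are Ccna2, the S phase cyclin, with 2.84 at 3 days, E2f7, a repressor of E2F targets, with 1.74 at 3 days, and E2f5 with 0.66 at 7 days. The call of E2f5 was lost without ouabain replicate 1 (0.57) and without control replicate 1 (0.55) of that day. It was also lost with the mean over its probe sets (0.36) and with the methods' t-test after Benjamini-Hochberg adjustment. Fbxw7, the ubiquitin ligase subunit that marks cyclin E for breakdown, fell by 0.95 at 3 days and by 1.05 at 7 days on the log2 scale. Ccne2, a cyclin E that partners Cdk2, had 7.65, 7.55 and 8.03 in ouabain-treated nerves at 3 days, against 6.81, 6.88 and 6.90 in control nerves. At 7 days it had 5.996, 5.70 and 5.92 in ouabain-treated nerves, against 7.25, 6.61 and 7.01 in control nerves. It was thus below its controls at 7 days (log2 fold change −1.09) and above them at 3 days (0.88), and the difference between the days was called (−1.97, SE 0.23, adjusted p = 0.00219 in limma).

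Several further partners, given by log2 fold change, were chosen after their values were seen. Cdk4, the other kinase of the D cyclins, had 1.03 at 3 days, where it was called, and 0.53 at 7 days, where it was not. Rbl1, the retinoblastoma relative p107, had 1.12, called, and 0.49, not called, while Rb1 itself had 0.43 and 0.39 and was not called. The call of Rbl1 was lost with the mean over its probe sets (0.41). Myc, a transcription factor upstream of D cyclins, had 1.52, called, and 0.57, not called, and E2f1 had 0.82, called, and 0.04, not called. Cdkn2d, the fourth INK4 gene, had −0.28 at 3 days, not called, and was called lower at 7 days at −0.75. Of the 5 genes called lower at 7 days, Ccne1 (−0.63), Cdkn2d and E2f6 (−0.60) were no longer called without control replicate 1 of that day, with −0.45, −0.56 and −0.52. Ccne1, Cdkn2d and E2f6 also lost their calls with the methods' t-test after Benjamini-Hochberg adjustment. E2f6 was further not called with the mean over its probe sets (−0.37) or without ouabain replicate 1 of that day (−0.50).

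Of 23 measured targets of p53, of 25 listed, 2 were higher, 2 lower and 19 did not pass at 3 days (median −0.03), and 4 were higher, 1 lower and 18 did not pass at 7 days (median 0.20). Over all genes 15.6% were called at 3 days and 15.8% at 7 days, in either direction. Gadd45a, a DNA damage and stress gene, had 11.67, 11.49 and 11.78 in ouabain-treated nerves at 3 days, against 8.65, 8.74 and 8.64 in control nerves. Its log2 fold changes were 2.97 at 3 days and 3.05 at 7 days. Plk2, a kinase induced by stress and by neuronal activity, rose on the log2 scale by 3.05 at 3 days and by 1.44 at 7 days, where the mean over its probe sets gave 0.56 and no call. Tigar, a regulator of sugar breakdown, fell by 1.05 at 3 days and by 1.48 at 7 days, and Zmat3 fell by 0.67 at 3 days. Mdm2, the ligase that p53 induces against itself, is named outside the rule of highest and lowest called genes. It had 0.04 and 0.03 and was not called. The sign of the value for Mdm2 turned under some settings. Fas and Pmaip1, also named outside the rule, were called higher at 7 days (0.87 and 0.86). Both lost the call with the methods' t-test after Benjamini-Hochberg adjustment. Pmaip1 also lost it with that t-test unadjusted and without ouabain replicate 1 or 3 of that day. Leaving out control replicate 1, 2 or 3 of that day ended its call as well.

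Of 12 measured genes linked to cell senescence, of 14 listed, 1 was called higher at 3 days (median 0.27) and 2 at 7 days (median 0.22), and the other 11 and 10 did not pass. Over all genes 7.51% and 7.57% were called higher. Ccl2, the monocyte chemokine, rose on the log2 scale by 2.46 at 3 days and by 1.23 at 7 days, and Igfbp7, a secreted binding protein of insulin-like growth factors, rose by 0.84 at 7 days. The count at 3 days was 3 without ouabain replicate 1 of that day and 2 without ouabain replicate 1 or 2 or control replicate 1 or 2 at 7 days, and the count at 7 days was 4 without ouabain replicate 2.

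**Figure D4:**
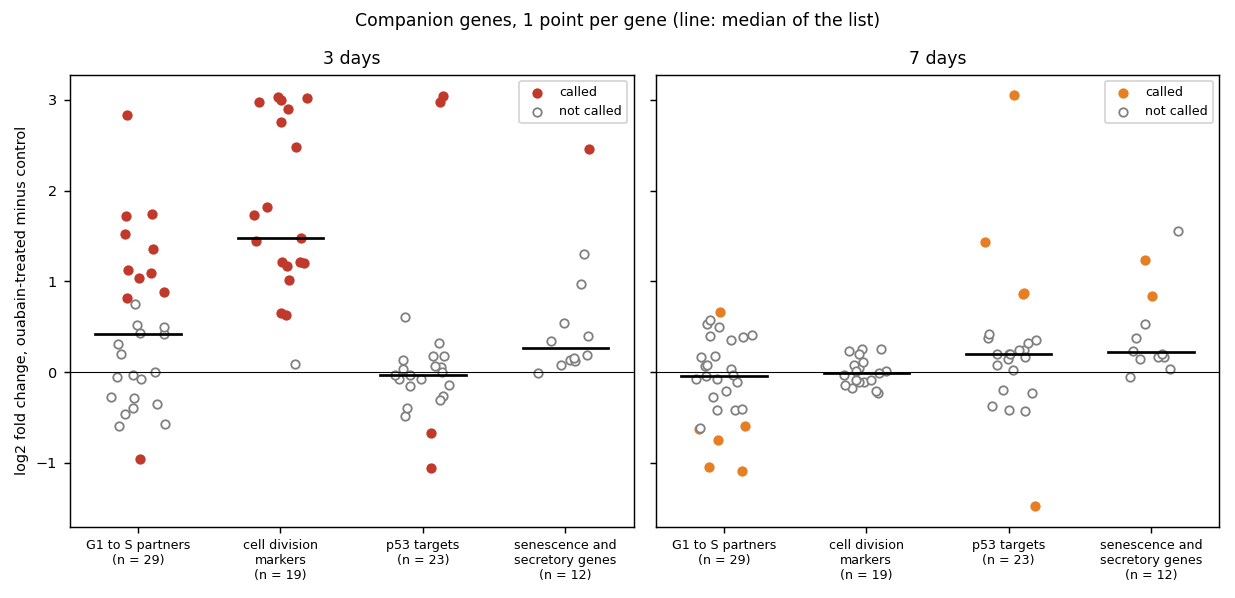
Log2 fold change of each gene in the 4 companion lists at 3 days and at 7 days, ouabain-treated minus control, with filled points for called genes and a line at the list's median. The cell division markers have a median of 1.48 at 3 days and −0.01 at 7 days.

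Cell division markers were called at 3 days and not at 7 days. Of 19 measured of 20 listed, 18 were higher at 3 days and 1, Tyms (0.09), did not pass, with 1.48 as their median on the log2 scale. The 2 highest at 3 days were Bub1 and Mki67. With each array left out, their log2 fold changes were 2.81 to 3.28 and 2.79 to 3.26. At 7 days none was called (19 of 19 did not pass, median −0.01). Among all genes, 7.51% were called higher at 3 days, and 7.57% higher and 8.2% lower at 7 days. The difference between the days was called for 0 of the 19 markers, against 1.17% of all genes, and its median over the markers was −1.46. The mean log2 value of the 19 markers was 8.06, 8.55 and 8.76 in ouabain-treated nerves at 3 days, against 6.66, 6.64 and 6.72 in control nerves. At 7 days it was 7.21, 6.85 and 7.35 in ouabain-treated nerves, against 8.04, 6.75 and 6.62 in control nerves. Control replicate 1 at 7 days thus stood above every ouabain array of its day. Mki67, the proliferation antigen, had 9.98 on that array, against 6.94 and 6.49 on the other controls of that day, and the mean level of 10 measured erythroid genes was 8.94 there, against 7.29 and 7.06. Ouabain-treated nerves of that day had erythroid means of 6.73 to 7.41. The mean of 13 neutrophil and marrow genes was 9.79 on the array, against 8.27 and 7.19, and the part of such cells in its values was not tested. Without that array 2 of the 19 markers were called higher at 7 days. On the same array Ccnd1 was the lowest of its 3 controls at 8.94, whereas Cdk6 and Cdkn2c were the highest of theirs, at 7.72 and 8.41. Without it, the 7-day log2 fold change was 1.45 for Ccnd1, 0.75 for Cdk6 and 0.58 for Cdkn2c. With all arrays kept, Ccnd1 was called higher at 7 days and none of the 19 division markers was. That count of markers depends on control replicate 1, since 2 were called without it, while Ccnd1 was called either way.

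**Figure D5:**
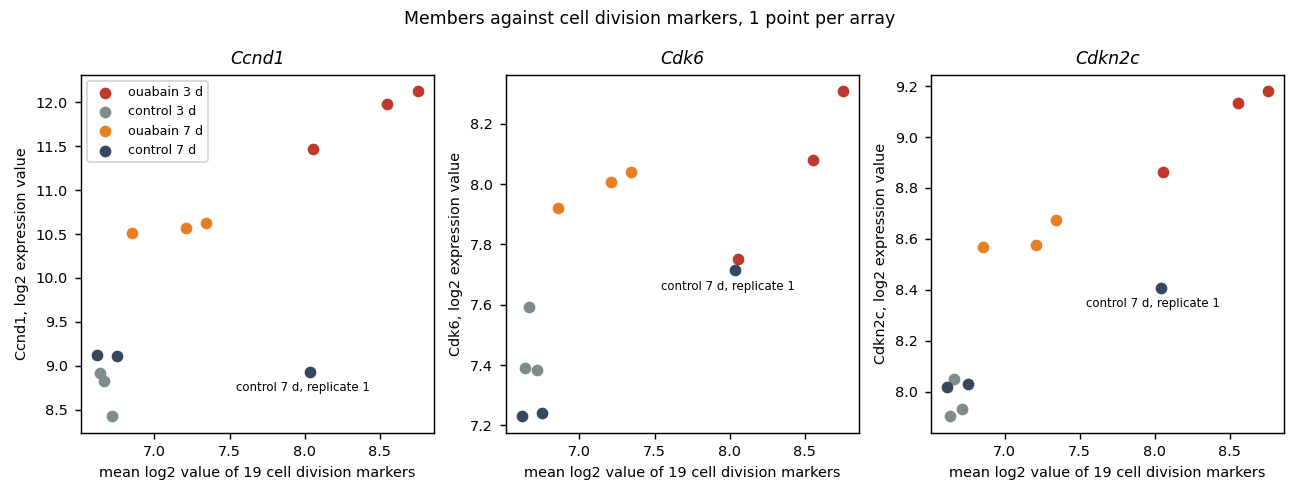
Log2 value of Ccnd1, Cdk6 and Cdkn2c on each array against the mean log2 value of 19 cell division markers on that array, 1 point per array. Control replicate 1 at 7 days lies at 8.04 on the marker axis with Ccnd1 at 8.94, among the controls, while Cdk6 and Cdkn2c on it lie above the other controls of that day.

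Marker genes of some other cell types differed between the same groups. Over all genes 7.51% were called higher and 8.06% lower at 3 days, and 7.57% higher and 8.2% lower at 7 days. All 17 measured macrophage genes were called higher at 3 days, and 16 of them at 7 days. Their mean log2 levels were 10.31 to 10.63 in ouabain-treated nerves at 3 days, against 8.44 to 8.82 in control nerves. At 7 days they were 10.36 to 10.54 in ouabain-treated nerves, against 8.58 to 8.84 in control nerves. Of 18 neuronal genes, 13 were lower and 2 higher at each day, with medians of −2.07 and −2.93. Of 10 measured Schwann cell genes, 2 were higher and 3 lower at 3 days, and 3 were higher and 4 lower at 7 days. Their mean level was 11.37 to 11.44 in ouabain-treated nerves at 3 days, against 11.43 to 11.52 in control nerves, and 10.96 to 11.13 in ouabain-treated nerves at 7 days, against 11.43 to 11.48 in control nerves. Of 10 fibroblast and matrix genes, 2 were higher at 3 days and 5 at 7 days (median 0.64 at 7 days), and none was lower. None of 10 endothelial and 13 measured neutrophil and marrow genes was called at either day. Erythroid, B cell, osteoblast and hair and supporting cell lists had at most 1 gene called in each direction at each day. The part of these cell types in the values of the cyclins and inhibitors was not tested. Ouabain replicate 1 at 3 days kept a higher mean neuronal level, 10.02, against 8.87 and 9.03 in the other replicates. It was the lowest of the 3 for Ccnd1, Ccnd3, Cdk6, Cdkn2c, Cdkn1a and the mean of the division markers. For Ccnd2, Cdkn1b and Cdkn1c it was the highest of the 3, and for Cdkn2a and Cdkn2b it lay between the others. Without it and control replicate 1 at 7 days, an alternative added after the values were seen, 4 members at 3 days and 3 at 7 days were called higher.

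The genes whose course over the 12 arrays was most like that of the 3 members with the largest called changes were found by the root mean square difference of centred log2 values over 18183 other genes. For Ccnd1 they were Akr1b8, an aldo-keto reductase (0.186), Nrcam, a neuronal and glial adhesion protein (0.196), and Gfra1, a receptor of the neurotrophic factor GDNF (0.236). For Cdkn2c they were Cks1b, a partner subunit of cyclin-dependent kinases (0.0910), the centromere protein Cenpt (0.0972) and the autophagy protease Atg4a (0.108). For Cdkn2b they were Ptges, a prostaglandin E synthase (0.130), Enc1 (0.134) and Atp8a1, a lipid flippase (0.147). This is a description over the arrays that also gave the fold changes.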

How the data were processed

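RNA of 12 modiolus samples was hybridised to Affymetrix mouse arrays. The authors used RMA in the Affymetrix Expression Console, which corrects background, normalizes by quantiles and summarises probe sets, and the log2 expression values they deposited were taken as they stand (versions not given in the sources used here). The number of arrays, 3 per group, limits the precision. Array medians ran from 6.01 to 6.09, and 50.1% to 51.2% of probe sets lay above 6. After 64 of 45101 probe sets (controls) were left out, 45037 were tested. Of these, 34945 carry 1 gene symbol in the platform annotation, 932 several and 9160 none, and 34741 were matched to the reference gene table by Entrez identifier. RMA sets all arrays to a common distribution, so a shift of most genes in 1 direction would not be seen.

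A model with 1 mean for each of the 4 groups was fitted over all probe sets (limma 3.58.1, R 4.3.3), and contrasts gave ouabain minus control at each day, the difference of these responses, and 7-day minus 3-day controls. Calls took p under 0.05 after Benjamini-Hochberg adjustment together with a fold above 1.5. The procedure was tested on simulated data. Tables and figures used Python 3.11.15. The alternatives were the methods' t-test with and without adjustment, a fit per day, a replicate block, other fold thresholds, a filter on dim probe sets, 2 other normalizations, trended robust moderation, array weights, the mean over probe sets and each array left out in turn.

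Genes named by rule are all 10 members, the 2 highest and 2 lowest called genes of each companion list at each day, and the 3 genes most like each of the 3 members with the largest called changes. Mdm2, Fas, Pmaip1, Tyms and the further G1 to S partners were named outside this rule. The members, lists and rule were chosen with earlier results of these data known.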

Additional observations from a re-analysis of the deposited data

Results flagged for a closer look

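Ccnd1 differed in its response between the days in limma, by a log2 difference of −1.63 (SE 0.23, adjusted p = 0.00747), with 1.51 at 7 days and 3.14 at 3 days. Ccne2, the cyclin E gene, differed by −1.97 (SE 0.23, adjusted p = 0.00219), with −1.09 at 7 days and 0.88 at 3 days. The stress-induced kinase gene Plk2 differed by −1.61 (SE 0.24, adjusted p = 0.00858), with 1.44 and 3.05. The chemokine gene Ccl2 differed by −1.23 (SE 0.19, adjusted p = 0.0114), with 1.23 and 2.46. The ouabain arrays lay above all control arrays of their day in Ccnd1, Plk2 and Ccl2 at both days, and in Ccne2 below them at 7 days and above them at 3 days.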

How the results depend on the processing

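Of the settings tried, Ccnd1 at 3 and 7 days and Cdkn2c at 3 days kept their calls in all, and Cdkn2b at 7 days lost its call only at a fold above 2. Members called at 3 days, 4 by the main rule, were 2 with the methods' t-test after Benjamini-Hochberg adjustment, 7 with no fold threshold, 2 at a fold above 2, 2 with array weights and 2 to 4 with each array left out. Those called at 7 days, 3 by the main rule, were 2 with the adjusted t-test, 7 with no fold threshold, 1 at a fold above 2 and 2 to 3 with each array left out. Cdk6 lost its calls at 3 and 7 days with the adjusted t-test and with the mean over probe sets. The methods' t-test without adjustment gave 4 members at 3 days and 3 at 7 days. The G1 to S partners called at 3 days, 11, were 19 with no fold threshold and 10 to 13 with each array left out. Those at 7 days, 6, were 2 with the adjusted t-test, 14 with no fold threshold, 2 at a fold above 2 and 4 to 7 with each array left out. The p53 targets called at 3 days, 4, were 7 with no fold threshold. At 7 days the 5 called were 3 with the adjusted t-test, 9 with no fold threshold and 3 at a fold above 2. Cell division markers at 7 days, 0 called, were 2 without control replicate 1 (0 to 2 with each array left out) and 3 without that array and ouabain replicate 1 at 3 days, an alternative added after the data were seen. Senescence genes called at 3 days, 1, were 3 with the unadjusted t-test, 3 with a fit per day, 2 in the replicate block, 4 with no fold threshold, 2 with the filter on dim probe sets, 2 after subtraction of the 75th percentile, 2 with array weights, 1 to 3 with each array left out and 3 without both arrays. At 7 days the 2 called were 1 at a fold above 2 and 2 to 4 with each array left out.

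Near-zero values changed sign. The Cdk6 difference between days was 0.0037 and became −0.019 with a second quantile normalization, −0.030 after the 75th percentile, −0.017 with the mean over probe sets and −0.14 to 0.16 with each array left out. That of Cdkn1a was 0.046 and became −0.015 with array weights, −0.041 with the mean over probe sets, −0.069 without both arrays and −0.078 to 0.17 with each array left out. Mdm2 at 7 days became −0.0030 with array weights, −0.022 with the mean over probe sets, −0.038 without both arrays and −0.055 to 0.12 with each array left out, and −0.012 to 0.068 at 3 days. E2f1 at 7 days ran from −0.075 to 0.23 with each array left out. The causes were not tested.

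Deviations of arrays with the same replicate number correlated at 0.334, 0.0892 and 0.177 at 3 days and at 0.277, 0.155 and 0.0189 at 7 days, and those with different numbers ran from −0.334 to 0.152. All 6 equal-number values were positive, but ouabain replicate 2 at 3 days and replicate 3 at 7 days correlated better with another number. In the methods, treated right ears and control left ears came from the same ouabain-exposed mice, so the design matches ears within animals. Neither the labels nor the methods tie a number to animals, and the main fit did not use the numbers as pairs. It therefore took the ears as unpaired. With the replicate block, 4 members were called at 3 days and 3 at 7 days, and the Ccnd1 difference between days had adjusted p = 0.0454 in limma. The lower end of the signal limits Cdkn2a, which the filter on dim probe sets removed.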
